A study of Mus musculus with 6 samples.

Results

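Dsp, Jup and Mcam are 3 cell adhesion genes of the 54532 in the deposited expression table, picked by gene name from RNA sequencing of CD11b-positive bone marrow cells. Their values were known when they were picked: each had lower levels in every Tshr-/- library than in any Tshr+/+ library, so that contrast is a description for the 3 genes and no test of it supports them. Dsp encodes desmoplakin and Jup encodes plakoglobin, both proteins of the desmosome plaque, while Mcam encodes the surface protein MCAM (CD146). The label of a desmosome set fits the genes by name only, since the cadherins that form a desmosome were at or near 0 fragments in these cells.

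The cells came from tibias of mice aged 12 weeks and were purified by positive selection for CD11b, an integrin chain of myeloid cells. The titles give 3 Tshr+/+ (wild-type) and 3 Tshr-/- mice, 1 library each, and the p-values below measure the spread between these libraries. Tshr encodes the thyroid-stimulating hormone receptor, and the study's title concerns that hormone, osteoporosis and AMPK signalling in osteoclasts. Another label calls the mutants a knockdown and a treatment label names osteoclast differentiation in both groups without a time. The sources used here do not give the allele, the strain or whether the loss is limited to some cells.

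A desmosome is a spot-like junction that rivets neighbouring cells together. Desmogleins and desmocollins, its cadherins, reach across the gap, plakoglobin and plakophilins bind their tails inside the cell, and desmoplakin ties this plaque to intermediate filaments. Plakoglobin also sits in adherens junctions and is a close relative of beta-catenin, the transcriptional partner of TCF and LEF factors. MCAM is an adhesion protein of the immunoglobulin superfamily, best known on endothelial cells, pericytes, marrow stromal cells and melanoma. Blood cells of the myeloid lineage are not known for building desmosomes.

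The 3 genes lie on different chromosomes of GRCm38. Dsp (ENSMUSG00000054889) spans 38151294 to 38198577 of chromosome 13 on the plus strand, Jup (ENSMUSG00000001552) spans 100368958 to 100397763 of chromosome 11 on the minus strand, and Mcam (ENSMUSG00000032135) spans 44134469 to 44142727 of chromosome 9 on the plus strand. In the GENCODE annotation the longest transcript models have 24, 14 and 16 exons. The sequence before each start site is shown because the 3 genes share the direction of their values. It comes from RefSeq (GRCm38.p6), which had 1 entry for each gene, and reads 5′ to 3′ on the strand of the gene. Capitals mark GGGCGG (the GC box) or its reverse complement for Dsp and Jup, and for Mcam only TGACGTCA (the cAMP response element), while a GC box on the opposite strand, 38 to 33 bases before the start, is left in lower case there.
Dsp, the 250 bases before the start, chr13:38151044-38151293, plus strand: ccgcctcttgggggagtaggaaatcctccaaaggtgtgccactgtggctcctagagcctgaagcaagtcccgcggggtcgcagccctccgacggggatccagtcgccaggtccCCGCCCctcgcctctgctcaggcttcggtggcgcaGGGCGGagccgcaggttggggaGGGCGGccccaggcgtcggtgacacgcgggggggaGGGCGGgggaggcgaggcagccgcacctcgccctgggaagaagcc
Jup, the 250 bases before the start, chr11:100397791-100398040, minus strand: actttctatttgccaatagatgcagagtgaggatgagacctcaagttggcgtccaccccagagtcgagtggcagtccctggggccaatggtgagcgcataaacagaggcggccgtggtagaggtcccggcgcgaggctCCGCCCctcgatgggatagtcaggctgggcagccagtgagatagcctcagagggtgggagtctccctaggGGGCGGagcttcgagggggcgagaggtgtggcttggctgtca
Mcam, 30 bases around TGACGTCA, chr9:44134618-44134647, plus strand: ccccgccccccTGACGTCAgcccccgacag

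All 3 upstream windows of 250 bases held the GC box, with 4 matches before Dsp, 2 before Jup and 5 before Mcam on either strand. Among 32841 mouse windows of the same length, 32.7% held at least 1. The windows were rich in G and C, with 72.4% for Dsp, 62% for Jup and 73.6% for Mcam against a median of 52.4% over all windows. TGACGTCA, a palindrome, was found before Mcam only among the 3, from 29 to 22 bases before the RefSeq start, and 1.55% of all windows held it. Its short form TGACG, which stood in 17.8% of windows, matched before Mcam only within that palindrome, once on each strand. The RefSeq start of Mcam lies 189 bases after the start of the deposited gene model, so the 30 bases shown are exonic in GENCODE. CTTTGAT (TCF and LEF factors), CACGTG (the E-box) and GAGGAAGT (PU.1) had no match before any of the 3, and 3.21%, 6.02% and 2.44% of windows held them. A match is a description of letters.

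**Figure D1:**
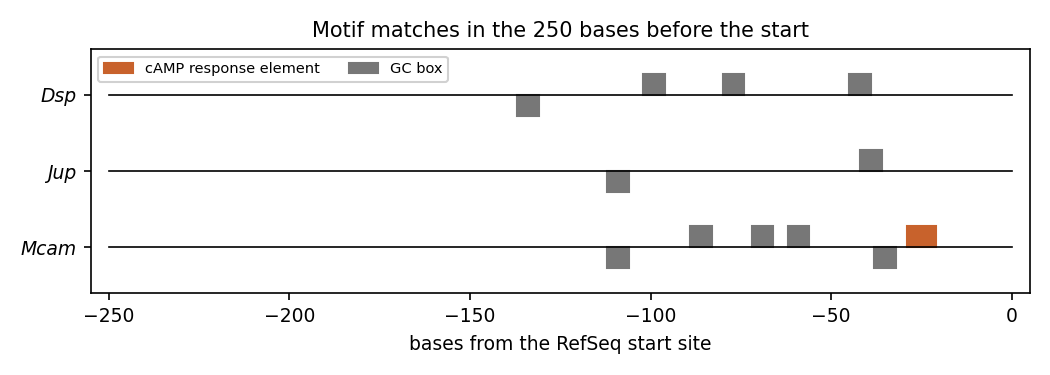
Motif matches in the 250 bases before the RefSeq start of Dsp, Jup and Mcam, with distance from the start in bases on the horizontal axis; boxes above a line are on the strand of the gene and boxes below it on the opposite strand. All 3 windows hold grey GC boxes, and the orange cAMP response element stands before Mcam, from 29 to 22 bases before the start.

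The libraries held 14698126 to 17976477 fragments assigned to genes. Levels are FPKM, fragments scaled by gene length and by library size, so they can be compared between genes. All 8 listed myeloid marker genes passed the filter, with summed levels of 9089 to 10586 FPKM in Tshr+/+ and 8000 to 9909 FPKM in Tshr-/-. Most of that was Lyz2, at 7836 ± 706 and 6995 ± 710 FPKM, while Itgam, the gene of CD11b, had 116.9 ± 7.33 and 109.0 ± 23.2 FPKM. Such levels do not measure how pure the cells were. Tshr itself had 55, 55 and 45 fragments in Tshr+/+ libraries 1, 2 and 3, and 40, 25 and 1 in the libraries labelled Tshr-/- 1, 2 and 3. Its group means of 0.498 ± 0.0811 and 0.239 ± 0.209 FPKM (SD, n = 3) did not pass an exact permutation test (two-sided p = 0.2; with 3 against 3 libraries p cannot go below 0.1). The sources used here do not say which part of the gene the mutation removes. Each direction below is that of the labels, and values without the libraries labelled Tshr-/- 1 and 2 are given beside the results.

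Dsp, the link from the junction to intermediate filaments, showed the widest gap of the 3. In Tshr+/+ it had 3.03, 2.43 and 1.16 FPKM in libraries 1, 2 and 3, from 498, 389 and 208 fragments. The libraries labelled Tshr-/- 1, 2 and 3 had 0.328, 0.162 and 0.334 FPKM, from 51, 22 and 65 fragments. All Tshr-/- values lay below all Tshr+/+ values, and the lowest Tshr+/+ library still had 3.49 times the level of the highest Tshr-/- library. The means were 2.21 ± 0.951 and 0.275 ± 0.0974 FPKM (SD, n = 3), 8.03-fold apart. Fewer cells of a type and less RNA per cell cannot be told apart in such bulk samples. Exact 95% Poisson intervals, which cover counting error only, ran from 1.01 to 1.33 FPKM in Tshr+/+ 3 and from 0.258 to 0.426 FPKM in Tshr-/- 3. The Tshr+/+ libraries thus also differed among themselves: their coefficient of variation was 43.1%, against 5.50% from counting alone and a median of 20.3% over 2364 tested genes within 1.5-fold of that mean level.

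Jup, the plaque protein shared with adherens junctions, was the most even of the 3 in Tshr+/+. It had 3.35, 3.85 and 3.53 FPKM in Tshr+/+ libraries 1, 2 and 3, from 367, 410 and 420 fragments. The libraries labelled Tshr-/- 1, 2 and 3 had 2.13, 2.40 and 1.99 FPKM, from 221, 217 and 258 fragments. The groups did not overlap, and the lowest Tshr+/+ value was 1.39 times the highest Tshr-/- value. The means were 3.57 ± 0.252 and 2.18 ± 0.211 FPKM (SD, n = 3), 1.64-fold apart. Spread within each group was close to what counting gives, with coefficients of variation of 7.06% against 5.01% in Tshr+/+ and 9.69% against 6.58% in Tshr-/-. Tshr had 40, 25 and 1 fragments in the libraries labelled Tshr-/- 1, 2 and 3, and Jup did not follow that order, being highest in library 2. Poisson intervals of Jup overlapped between libraries 1 and 3, at 1.86 to 2.44 and 1.75 to 2.25 FPKM. Among these libraries Dsp was highest in library 3, at 0.334 FPKM, while Mcam fell in the order of Tshr, from 3.66 to 3.51 and 3.13 FPKM. The intervals of Mcam all overlapped, at 3.16 to 4.20, 3.00 to 4.09 and 2.72 to 3.58 FPKM, so counting does not resolve that order. A link of the 3 genes to the remaining Tshr fragments was not tested.

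Mcam, the surface adhesion protein, had the highest level of the 3 genes. It had 6.48, 6.65 and 4.66 FPKM in Tshr+/+ libraries 1, 2 and 3, from 370, 369 and 289 fragments. The libraries labelled Tshr-/- 1, 2 and 3 had 3.66, 3.51 and 3.13 FPKM, from 197, 165 and 211 fragments. Again the groups did not overlap, with the lowest Tshr+/+ library at 1.28 times the highest Tshr-/- library. The means were 5.93 ± 1.10 and 3.43 ± 0.274 FPKM (SD, n = 3), 1.73-fold apart. The 95% intervals of the nearest libraries overlapped, from 4.14 to 5.23 FPKM in Tshr+/+ 3 and from 3.16 to 4.20 FPKM in Tshr-/- 1. The coefficient of variation was 18.6% in Tshr+/+, against 5.43% from counting alone, and 7.99% in Tshr-/-, against 7.26%.

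**Figure D2:**
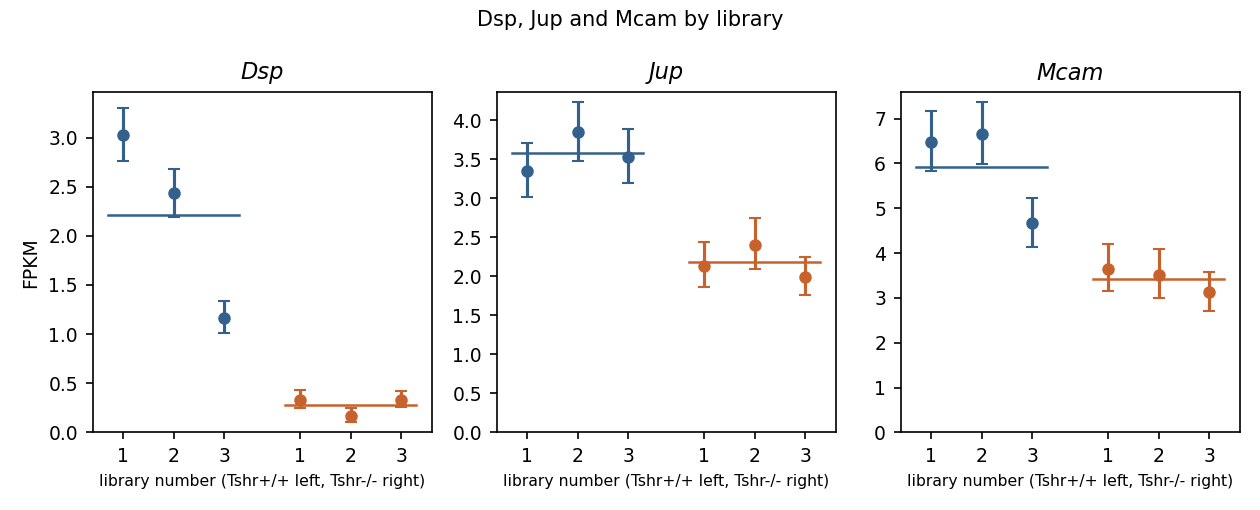
FPKM of Dsp, Jup and Mcam in each of the 6 libraries (blue, Tshr+/+; orange, Tshr-/-); error bars are exact 95% Poisson intervals of the fragment counts and lines are group means. In every panel the 3 Tshr-/- libraries lie below the 3 Tshr+/+ libraries, and the ratio of the lowest Tshr+/+ to the highest Tshr-/- value is smallest for Mcam, at 1.28.

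Read together, the Tshr+/+ libraries did not rank the genes alike. Library 3 was the lowest for Dsp and Mcam, while for Jup the lowest was library 1. Within a library the ratio of Dsp to Jup was 0.904, 0.632 and 0.330 in Tshr+/+ 1, 2 and 3, and 0.154, 0.0676 and 0.168 in the libraries labelled Tshr-/- 1, 2 and 3. Such a ratio does not depend on how libraries are scaled to each other, and it was lower in every Tshr-/- library. It rests on values that led to the choice of both genes, and is a description. The ratio of Mcam to Jup, in contrast, overlapped between groups, at 1.66 ± 0.313 in Tshr+/+ and 1.58 ± 0.126 in Tshr-/- (SD, n = 3).

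On the scale log2(FPKM + 1), on which differences of weakly expressed genes come out too small, the difference of Tshr-/- minus Tshr+/+ was -1.29 ± 0.24 for Dsp, -0.53 ± 0.11 for Jup and -0.63 ± 0.15 for Mcam (SE from limma). Among 10913 tested genes these were the 11th, 168th and 112th lowest differences, and the median of all was -0.01. Groups without overlap and with lower Tshr-/- values made up 3.55% of tested genes (6.77% with either direction), and the 3 genes are among them by the way they were picked. The filter asked for at least 1 FPKM in at least 3 libraries: Jup and Mcam met it in all 6, Dsp only in the 3 Tshr+/+ libraries. Limma called 0 of the 10913 genes lower (0%) and 0 higher at an adjusted p under 0.05, where 317 genes (2.90%) had an unadjusted p under 0.05 and limma's voom on whole fragments called 0 of 13709. Limma with array weights called 24 genes (0.220%), 11 of them lower (0.101%). Since the 3 genes were picked for this contrast, and Dsp met the filter only through Tshr+/+, nothing is read from these fits about them. The library labelled Tshr-/- 1 then weighed 3.82 and Tshr+/+ 2 weighed 3.15, which compare with 0.247 to 1.25 for the other libraries.

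**Figure D3:**
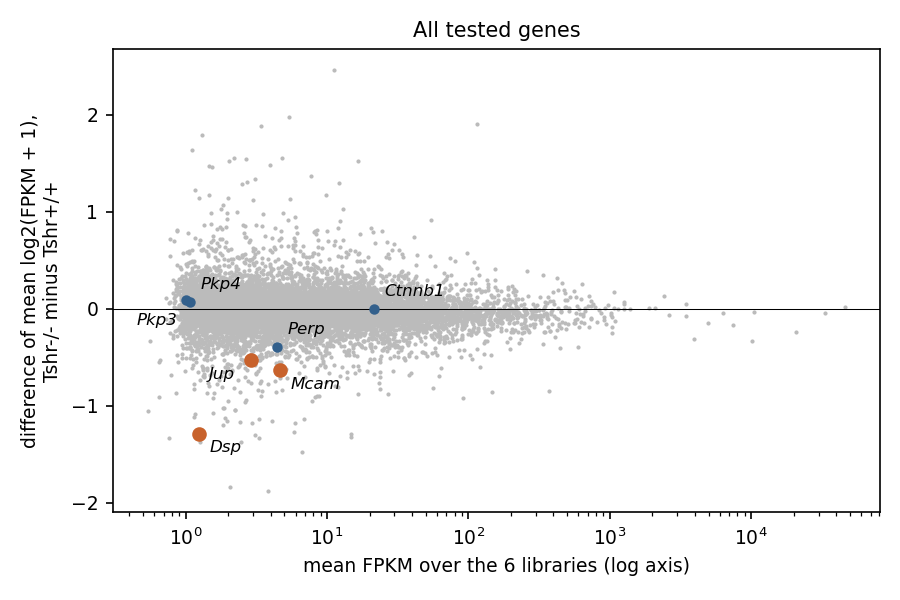
Difference of mean log2(FPKM + 1), Tshr-/- minus Tshr+/+, against mean FPKM (log axis) for the 10913 tested genes (grey points), with Dsp, Jup and Mcam in orange and other junction genes in blue. Dsp lies at -1.29, Mcam at -0.63 and Jup at -0.53, while Ctnnb1, Pkp3 and Pkp4 lie near 0 and Perp at -0.39.

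The differences kept their direction when libraries were left out, which was fixed by the way the genes were picked and supports nothing. Without the libraries labelled Tshr-/- 1 and 2 they were -1.22 for Dsp, -0.61 for Jup and -0.74 for Mcam, with 1 mutant library left.

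The desmosomal cadherins were at or near 0 in both genotypes. Dsg1a, Dsg1c, Dsg3, Dsg4, Dsc1, Dsc2 and Dsc3 had 0 fragments in all 6 libraries, which allows at most 0.0615 FPKM in a library for any of these 7 cadherins (3 fragments, counting error only). Dsg1b had 2 fragments in 1 library and Dsg2 had 3 fragments in 2 libraries. These genes lie together on chromosome 18, of whose coding genes 79.3% had a value above 0 in at least 1 library, against 75.9% over the genome. So the plaque genes Dsp and Jup were measured in cells whose RNA held next to none of the cadherins to which that plaque binds.

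Plakophilins, the armadillo proteins that bind desmoplakin to the cadherin tails, held similar low levels in both groups. Pkp3 averaged 0.959 ± 0.326 and 1.07 ± 0.127 FPKM in Tshr+/+ and Tshr-/-, and Pkp4 had 1.03 ± 0.121 and 1.13 ± 0.0593 FPKM (SD, n = 3). Pkp1 reached 1 fragment in 1 library, and Pkp2 at most 4 fragments. Neither of the 2 measurable plakophilins followed Dsp or Jup, since their groups overlapped with a slightly higher mean in Tshr-/-.

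Perp, a membrane protein found in desmosomes, showed the pattern of Dsp in part. Tshr+/+ 1, 2 and 3 had 5.74, 6.68 and 3.21 FPKM, and the mutant libraries 1, 2 and 3 had 4.24, 3.22 and 3.38 FPKM. The groups overlapped because Tshr+/+ 3 was as low as the Tshr-/- libraries, and the difference of -0.39 ± 0.23 (SE) did not pass (limma adjusted p = 0.9997). Evpl, envoplakin of the same protein family as desmoplakin, had 56, 49 and 9 fragments in Tshr+/+ 1, 2 and 3 and 20, 17 and 19 in the libraries labelled Tshr-/- 1, 2 and 3. Dsp, Mcam, Perp and Evpl thus all had their lowest Tshr+/+ value in library 3. Over all genes that library differed most within its group. Its chi-square per degree of freedom was 64.2 against Tshr+/+ 1 and 59.6 against Tshr+/+ 2, beside 10.9 between Tshr+/+ 1 and 2. The share of all genes with their lowest Tshr+/+ value in library 3 was not computed, so no shared pattern is read from these genes. Ppl, periplakin, had 1 or 2 fragments in each Tshr+/+ library and 11, 2 and 5 in the libraries labelled Tshr-/- 1, 2 and 3, too few for a comparison. Evpl and Ppl were under the filter and were not tested.

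**Figure D4:**
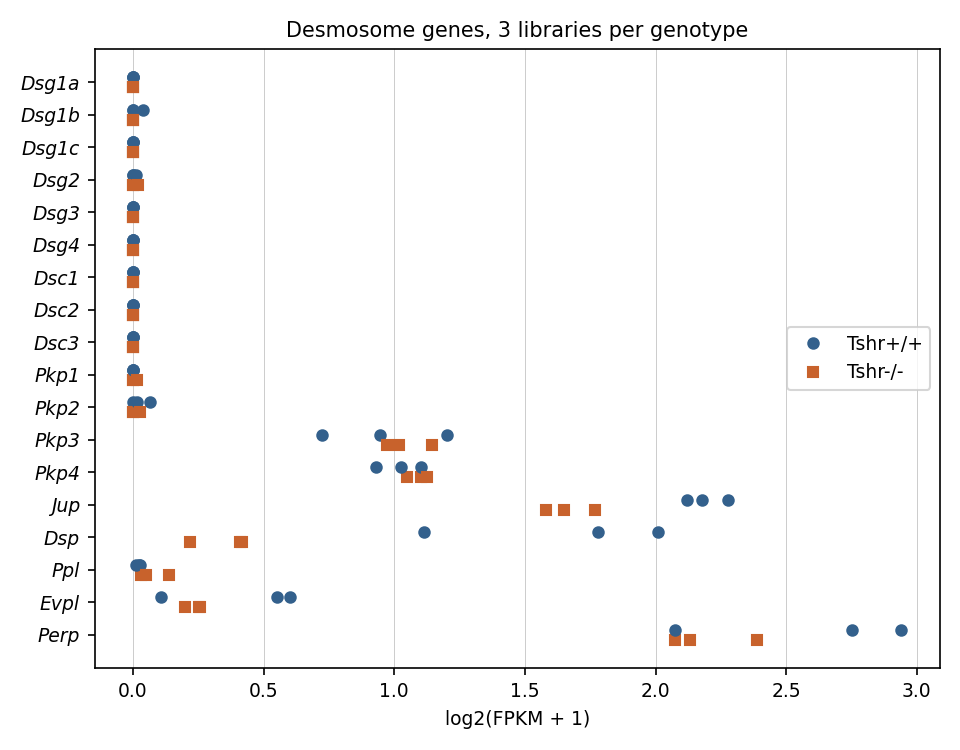
Levels of the 18 listed desmosome genes as log2(FPKM + 1) in each library (blue circles, Tshr+/+; orange squares, Tshr-/-). The cadherins Dsg and Dsc lie at or near 0 in every library, Pkp3 and Pkp4 overlap between groups, and Jup and Dsp have separate groups.

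Ctnnb1, which encodes beta-catenin, the nearest relative of plakoglobin, was more abundant than Jup and had like levels in both groups. Tshr+/+ 1, 2 and 3 had 20.8, 20.2 and 23.5 FPKM, and the mutant libraries 1, 2 and 3 had 19.8, 19.7 and 25.3 FPKM. The log2 difference was 0.00 ± 0.13 (SE, limma adjusted p = 0.9997). The ratio of Jup to Ctnnb1 within a library was 0.161, 0.190 and 0.150 in Tshr+/+ and 0.108, 0.122 and 0.0788 in Tshr-/-, without overlap. That ratio rests on Jup, whose values led to its choice, and is a description. The 2 genes are related in sequence, and the sources used here do not say how fragments that match both were counted.

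Other genes of adherens junctions and of catenin signalling showed no shared direction. Of 5 tested adherens junction genes 0 passed. Vcl, which encodes vinculin, the link from junctions to actin, had 25.8 ± 4.30 and 31.8 ± 2.35 FPKM, and Ctnnbip1, an inhibitor of beta-catenin, had 5.01 ± 0.577 and 4.25 ± 0.359 FPKM (SD, n = 3). Of 6 tested genes of catenin and TCF signalling 0 passed, 3 with a difference below and 3 above 0. Apc, a scaffold of the complex that degrades beta-catenin, had 2.44 ± 0.102 and 3.07 ± 0.223 FPKM without overlap, and Myc, a target of TCF factors, had 4.31 ± 0.173 and 5.34 ± 1.42 FPKM. Gsk3a, a kinase related to the one in that complex, was the most abundant of them at 31.9 ± 3.29 and 30.5 ± 2.75 FPKM.

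Vimentin, which forms the intermediate filaments of myeloid cells, was the only 1 of 10 listed filament genes to pass the filter. Vim had 292.7 ± 34.0 and 277.0 ± 25.9 FPKM (SD, n = 3). The keratins Krt5, Krt14 and Krt19, filaments of epithelia with desmosomes, had 0 fragments in all 6 libraries, and Krt18 had between 0.527 and 1.39 FPKM.

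Ligands and partners reported for MCAM were partly abundant. The calprotectin gene S100a9 had 45613 ± 6788 and 46595 ± 10395 FPKM. Ezr, which encodes ezrin, a link from membrane proteins to actin, had 143.6 ± 45.1 and 117.6 ± 17.7 FPKM, and Msn of the same family had 156.2 ± 4.31 and 163.3 ± 2.83 FPKM, with all Tshr-/- values above all Tshr+/+ values. Wnt1, Wnt5a and Fgf4 had 0 fragments in all libraries, and Lama4, the laminin chain that MCAM binds, stayed between 0.00448 and 0.0247 FPKM. Of 7 tested genes in this list 0 passed.

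Other adhesion genes of the immunoglobulin superfamily did not follow Mcam as a group. Of the 7 tested beside Mcam 0 passed, with 2 differences below and 5 above 0. Alcam, an adhesion protein of similar domain structure, averaged 5.35 ± 0.655 FPKM in wild type and 6.28 ± 0.208 FPKM in mutants, without overlap. Ncam1, a neural adhesion protein, had 7.53 ± 0.615 and 6.38 ± 0.620 FPKM with overlap. Vcam1, a ligand of integrins on marrow macrophages and stroma, was the most abundant at 11.7 ± 1.57 and 11.7 ± 3.43 FPKM (SD, n = 3).

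Over these 6 lists of partners and relatives, 29 of 85 genes other than the 3 could be tested. Limma called 0 of the 29, and 0 had an unadjusted p under 0.05. Their median log2 difference was 0.02 beside -0.01 over all tested genes, with 12 below and 17 above 0. Of the 29 tested partners 0 had all Tshr-/- values below all Tshr+/+ values, and 3 (Apc, Msn and Alcam) had them above. Among all tested genes the shares were 3.55% and 3.23%. Partners under the filter are not in these counts, and some of them were without overlap, such as Jam3 with lower and Kdr with higher Tshr-/- values.

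Genes beside the 3 in the genome went different ways. Gm10687, which overlaps Mcam on the opposite strand, had at most 4 fragments in a library, and Gm10129, which overlaps Dsp on the opposite strand, at most 1. The sources used here do not say whether counting used strand. Cbl, a ubiquitin ligase gene on the opposite strand 249 bases away from Mcam, averaged 31.8 ± 0.918 FPKM in wild type and 40.5 ± 3.20 FPKM in mutants (SD, n = 3), the opposite direction to Mcam. It was named after its values were seen and did not pass (limma adjusted p = 0.9997). Snrnp48, the nearest gene to Dsp, had 3.03 ± 0.0222 and 2.69 ± 0.365 FPKM.

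Several genes outside the pathways had nearly the same profile over the 6 libraries. Likeness was Pearson's r of log2(FPKM + 1) among 8910 other genes with a mean of at least 50 fragments, given as a description over 6 libraries that fall into 2 groups. Nearest to Dsp were Csrp1 (r = 0.991), Rammet (0.987), Slc39a11 (0.982), Pwwp2b (0.979) and Cdc37 (0.977). Csrp1 encodes a LIM domain protein of the actin cytoskeleton and had 44.7 ± 2.74 and 38.4 ± 1.17 FPKM, a far smaller relative gap than that of Dsp. Nearest to Jup were Hnrnph3 (0.973), Zfc3h1 (0.973), Camk1 (0.970), Zmpste24 (0.964) and Stambpl1 (0.957). Zmpste24, the protease that matures lamin A, had 40.3 ± 0.488 and 32.1 ± 2.53 FPKM. Nearest to Mcam were Rad17 (0.986), Psmf1 (0.982), Rbm12 (0.980), Trf (0.980) and Pwwp2b (0.978), and Pwwp2b had 2.54 ± 0.529 and 1.37 ± 0.102 FPKM (SD, n = 3). Among the 3 genes themselves r was 0.973 for Dsp and Mcam, 0.905 for Jup and Mcam and 0.862 for Dsp and Jup. High values follow from picking genes with the same separation of groups. In likeness to Dsp, Mcam ranked 7th and Jup 180th, and in likeness to Mcam, Dsp ranked 7th and Jup 85th.

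Marker genes of other cell types were summed in each library. For 0 of 14 cell type lists was the summed level lower in every Tshr-/- library than in every Tshr+/+ library, and for 2 it was higher. Of single tested genes, 3.55% were lower and 3.23% higher in this way. The 11 endothelial and pericyte markers, among whose cells Mcam is a known marker, summed to 19.4 to 28.6 FPKM in Tshr+/+ and 16.2 to 35.7 FPKM in Tshr-/-. Most of that was Acta2, at 19.6 ± 5.19 and 17.4 ± 8.81 FPKM, while the defining genes Cdh5 and Kdr had higher means in Tshr-/- (Cdh5 0.317 ± 0.0412 and 0.682 ± 0.197 FPKM, SD, n = 3). The 8 stromal markers summed to 4.47 to 8.30 FPKM in Tshr+/+ and 5.41 to 9.23 FPKM in Tshr-/-. The 7 epithelial markers, of cells that build desmosomes, summed to 1.51 to 2.41 FPKM and 1.78 to 2.11 FPKM, with Krt5, Krt14 and Krt19 at 0 in all libraries.

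Among the marker lists, those of B and plasma cells and of resident macrophages had the lowest Tshr-/- means relative to Tshr+/+. The 13 macrophage markers, all above 0, summed to 273.7 to 356.4 FPKM in Tshr+/+ and 197.3 to 285.0 FPKM in Tshr-/-, and 11 of 13 had a difference below 0. Apoe, a lipoprotein gene of macrophages, had 147 ± 27.5 and 96.2 ± 12.2 FPKM, and Trf, which encodes transferrin and is also among the genes most like Mcam, had 3.60 ± 0.568 and 2.48 ± 0.207 FPKM (SD, n = 3). The 11 B and plasma cell markers summed to 395.8 to 698.5 FPKM and 261.7 to 458.0 FPKM, of which 6 were tested and 5 had a difference below 0. Most of that sum was Igkc, the kappa light chain, at 478 ± 140.2 and 268 ± 89.7 FPKM. Ighm, an immunoglobulin heavy chain gene, went the other way, at 60.9 ± 18.5 and 86.8 ± 16.8 FPKM with overlap. Of the defining B cell genes, Ms4a1 was low at 1 to 14 fragments per library, at most 0.122 FPKM, and Pax5 was at 0 in 1 library. Cd79a and Cd79b passed the filter, at 1.37 to 3.82 FPKM and 1.99 to 4.54 FPKM over all libraries. Tshr+/+ 2 had the lowest sum of both lists in its group. Jup was highest in that library, at 3.85 FPKM. Dsp was highest in Tshr+/+ 1, at 3.03 FPKM against 2.43 FPKM in Tshr+/+ 2. Mcam was nearly equal in these libraries, at 6.48 FPKM in Tshr+/+ 1 and 6.65 FPKM in Tshr+/+ 2, from 370 and 369 fragments. The part of macrophages and of B and plasma cells in the levels of Dsp, Jup and Mcam was not tested.

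T and NK cell markers summed to 68.1 to 81.3 FPKM in Tshr+/+ and 81.9 to 103.6 FPKM in Tshr-/-, and markers of plasmacytoid dendritic cells to 28.5 to 40.0 and 40.3 to 47.0 FPKM. Both sums were higher in Tshr-/- without overlap, as were 3.23% of single tested genes. Most of the T and NK sum was Nkg7, at 61.7 ± 9.42 and 75.9 ± 8.46 FPKM. Most of the other sum was Bst2, at 25.9 ± 4.29 and 31.9 ± 4.27 FPKM, and each of these genes overlapped between groups. Gzma, a granzyme, had 4.30 ± 0.831 and 7.66 ± 1.70 FPKM (SD, n = 3), and 0 of 5 tested T and NK genes passed. Markers of mature neutrophils, the list with the highest sum, came to 78051 to 94661 FPKM and 65084 to 98760 FPKM, with overlap.

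**Figure D5:**
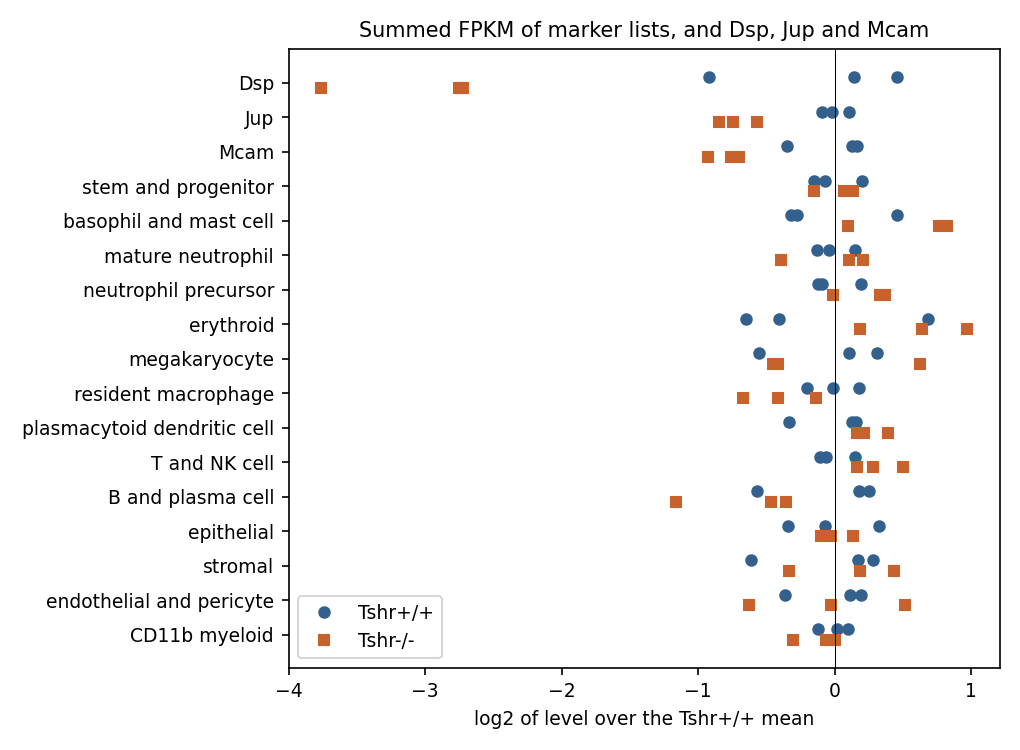
Level in each library relative to the Tshr+/+ mean, as log2, for Dsp, Jup, Mcam and the summed FPKM of 14 marker lists (blue circles, Tshr+/+; orange squares, Tshr-/-). The 3 genes have all Tshr-/- libraries below all Tshr+/+ libraries by the way they were picked. The same holds for 0 of the 14 sums and for 3.55% of single tested genes.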

How the data were processed

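FPKM values were made and deposited by the authors as 1 table of 54532 genes with 6 library columns; per the submitters' processing notes the builds were GRCm38 and mm10, and aligner, counting tool and use of strand are not stated in the sources used here. Columns WT and HO were read as Tshr+/+ and homozygous Tshr-/-, with the numbers of the titles. FPKM times gene length gave whole multiples of 1 step per library (100% within 0.01), from which whole fragments were computed. The deposited values already carry a median-of-ratios scaling between libraries (ratio of 1 in all 6). Smallest chi-square per degree of freedom between 2 libraries was 10.9, so none was a copy.

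Tested were genes that reached 1 FPKM in 3 or more libraries, compared on log2(FPKM + 1) with limma 3.58.1 in R 4.3.3 (empirical Bayes with a trend, two-sided, Benjamini-Hochberg over all tested genes, threshold 0.05), a script tested on simulated data. Deviations from the group means correlated at 0.24, 0.26 and 0.47 between libraries of the same replicate number. Tshr+/+ 2 and Tshr-/- 1, of different numbers, also correlated at 0.34. The data thus do not settle whether the numbers pair the libraries, and the main fit used no pairing. Alternatives were other pseudocounts, filters and scalings, voom on fragments, array weights, a block for the replicate number and leaving libraries out.

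The members and gene lists were chosen with earlier results of these data known. Named were the 3 genes, Tshr, Ctnnb1, all desmosome genes, from each other list the members past the threshold or else the 2 of smallest p and the most abundant one, and the 5 genes most like each member. The text gives a selection of these. Genes outside the rule that are named for a value at or near 0, as defining markers or as neighbours in the genome, were named after their values were seen. Promoters were taken from RefSeq GRCm38.p6, and 3 of 3 members matched.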

Additional observations from a re-analysis of the deposited data

How the results depend on the processing

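Dsp, Jup and Mcam had lower Tshr-/- than Tshr+/+ means under every alternative run. For other pseudocounts, other filters, array weights, the replicate block and left-out libraries this direction was fixed by the way the genes were picked. The log2 difference of Dsp was -2.56 with a pseudocount of 0.1, -1.74 with 0.5 and -2.90 with voom on whole fragments, and that of Jup was -0.69 with 0.1 and -0.72 with voom. Smaller pseudocounts shrink low values less by construction. Leaving out 1 library at a time gave -1.55 to -1.10 for Dsp, -0.58 to -0.48 for Jup, -0.77 to -0.56 for Mcam and -0.35 to -0.14 FPKM for Tshr, with 0 to 2 genes called over all and 0 among listed genes; the 2 came without Tshr-/- 3. Without any 1 Tshr+/+ library Dsp no longer met the filter. Array weights called 24 genes, 2 of them listed: Dsp and Mcam, which were picked for this difference, so their calls support nothing. With the replicate number as a block, 0 genes were called, and the block changed no call. Depth limits Dsp most, at 22 fragments in Tshr-/- 2.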
